A study of Mus musculus with 4 samples.

Results

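Blood vessels of the tibialis anterior, the muscle that lifts the foot, were followed here through 9 genes of the cells that wrap them. The 5 contractile genes of smooth muscle (Acta2, Myh11, Tagln, Myl9 and Cnn1) were set beside 4 mural genes that pericytes share with smooth muscle (Rgs5, Pdgfrb, Cspg4 and Notch3). They were chosen by symbol, not by their values, as the count rows naming that gene alone, out of 28782 genes with a count in a kept section. The study cut 4 mouse muscles into sections along 1 axis and counted the RNA of each section under its own barcode (TOMO-seq with CEL-Seq2, which counts transcript 3' ends). The authors kept 37, 45, 46 and 43 sections of muscles 1 to 4, or 171 in all. The labels give the tissue and a muscle number, and no strain, age, sex, treatment or animal, so all muscles form 1 group. P-values over muscles therefore measure only the spread between these samples, which may be technical.

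Arteries, arterioles and veins are sheathed by smooth muscle cells, whose contractile apparatus sets the width of the vessel. Capillaries, which run between the muscle fibres, are covered by pericytes instead, cells that carry little of that apparatus and are recruited by platelet-derived growth factor from the endothelium. Notch signals from the endothelium maintain smooth muscle, and serum response factor with its partner myocardin switches on contractile genes through the CArG box in their promoters.

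A section held from 86190 to 1159700 transcripts, and 59.1% to 66.9% of those of a muscle were mitochondrially encoded. Levels are given as CPM, transcripts per 1000000 in that section, zone or muscle. Position runs from 0 at the first kept section to 1 at the last, in the order of barcode numbers. The labels do not say which end of the muscle came first. The tissue label held: with all 171 sections pooled, the contractile members summed to 173 CPM and the mural members to 68.6 CPM. The sum was 38995 CPM for 8 skeletal muscle fibre genes.

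The promoters of members are shown because the CArG box is a known control element of contractile genes. RefSeq promoter entries matched 6 of the 9 members (Acta2, Myl9, Cnn1, Rgs5, Cspg4 and Notch3). The 250 bases before the start given by each entry were searched. For Acta2, Myl9, Cnn1 and Cspg4 that start lies inside the gene bounds given below, and so does part of the searched stretch. The CArG box was read as CC, 6 inner bases that are A or T, and GG, a pattern that is its own reverse complement, and matches with at most 1 inner G or C were also taken. In the sequences of Acta2 (chr19:34255374-34255623, minus strand), Myl9 (chr2:156775214-156775463, plus strand) and, for contrast, Rgs5 (chr1:169655251-169655500, plus strand), all GRCm38.p6, capitals mark these matches.
Acta2: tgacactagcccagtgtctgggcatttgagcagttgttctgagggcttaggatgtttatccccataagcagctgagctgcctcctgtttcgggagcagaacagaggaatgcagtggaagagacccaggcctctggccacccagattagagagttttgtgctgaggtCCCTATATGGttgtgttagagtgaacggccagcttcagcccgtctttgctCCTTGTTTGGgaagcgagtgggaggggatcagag
Myl9: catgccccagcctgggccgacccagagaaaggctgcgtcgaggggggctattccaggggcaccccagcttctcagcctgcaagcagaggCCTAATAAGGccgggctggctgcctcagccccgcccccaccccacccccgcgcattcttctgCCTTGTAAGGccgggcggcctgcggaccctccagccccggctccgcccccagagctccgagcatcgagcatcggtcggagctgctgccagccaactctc
Rgs5: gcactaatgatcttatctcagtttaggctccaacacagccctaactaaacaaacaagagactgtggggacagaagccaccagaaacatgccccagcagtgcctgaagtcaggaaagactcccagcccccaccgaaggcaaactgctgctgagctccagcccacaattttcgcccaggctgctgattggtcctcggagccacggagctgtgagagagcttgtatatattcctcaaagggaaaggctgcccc
Counted back from the start, Acta2 held CCCTATATGG at -84 to -75 and CCTTGTTTGG at -34 to -25, each with 1 inner G or C. Myl9 held CCTAATAAGG, with none, at -161 to -152 and CCTTGTAAGG, with 1, at -99 to -90. The other 4 promoters held no match. Over 32851 promoters of the same length, 8.59% held such a match and 0.670% held at least 2. A match is a description of these letters and not a measured binding site.

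Acta2, the actin of smooth muscle, was counted in all 171 sections. It lies on chromosome 19 at 34241090 to 34255590, on the minus strand (GRCm38). Its protein is nearly the same as the skeletal actin of Acta1, but count rows that name any member together with another gene held at most 3 transcripts per member and muscle. Over the kept sections Acta2 had 67.7 and 61.9 CPM in muscles 3 and 4, and 123 and 108 CPM in muscles 1 and 2. The pairs did not overlap. How many of all genes also fail to overlap was not counted. The mean was 90.1 ± 29.97 CPM (SD, n = 4). Fewer cells of a type and less RNA per cell cannot be told apart in sections of whole tissue.

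Myh11, the smooth muscle myosin heavy chain (chromosome 16, 14194535 to 14291372, minus strand), had 30.8 and 30.3 CPM in muscles 3 and 4, and 41.4 and 29.8 CPM in muscles 1 and 2. Muscle 1 stood above the other muscles, which lay within about a CPM of each other. Tagln, which encodes the actin-bundling protein transgelin (chromosome 9, 45929619 to 45936058, minus strand), had 53.7 and 71.7 CPM in muscles 3 and 4, and 24.8 and 22.2 CPM in muscles 1 and 2. Here too the pairs did not overlap, and their order was the opposite of that of Acta2. Myl9, a regulatory light chain of smooth muscle myosin (chromosome 2, 156775420 to 156781658, plus strand), averaged 7.42 ± 2.62 CPM (SD, n = 4). Cnn1, the actin-binding protein calponin (chromosome 9, 22099216 to 22109630, plus strand), averaged 1.18 ± 0.372 CPM and was counted in 60 of 171 sections (35.1%).

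Rgs5, a regulator of G-protein signalling that marks pericytes (chromosome 1, 169655501 to 169695813, plus strand), had 56.2 and 41.9 CPM in muscles 3 and 4, and 60.4 and 51.1 CPM in muscles 1 and 2. The pairs overlapped, and Rgs5 was counted in every section. Notch3, the Notch receptor of mural cells (chromosome 17, 32120820 to 32166852, minus strand), averaged 10.4 ± 0.995 CPM (SD, n = 4), with the smallest relative range of the 9 members (highest over lowest muscle 1.26). Cspg4, the proteoglycan NG2 (chromosome 9, 56865033 to 56899870, plus strand), averaged 4.15 ± 0.861 CPM. Pdgfrb, the receptor by which pericytes are recruited (chromosome 18, 61045150 to 61085061, plus strand), averaged 1.74 ± 0.488 CPM and was counted in 89 of 171 sections. In a section of median depth a count of 0 allows a level of up to 3 counts (counting error only). That is 6.13, 9.31, 4.96 and 5.65 CPM in muscles 1 to 4. An empty section is thus within counting error for Cnn1, Pdgfrb and Cspg4, and for Myl9 in muscles 2 and 3.

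**Figure D1:**
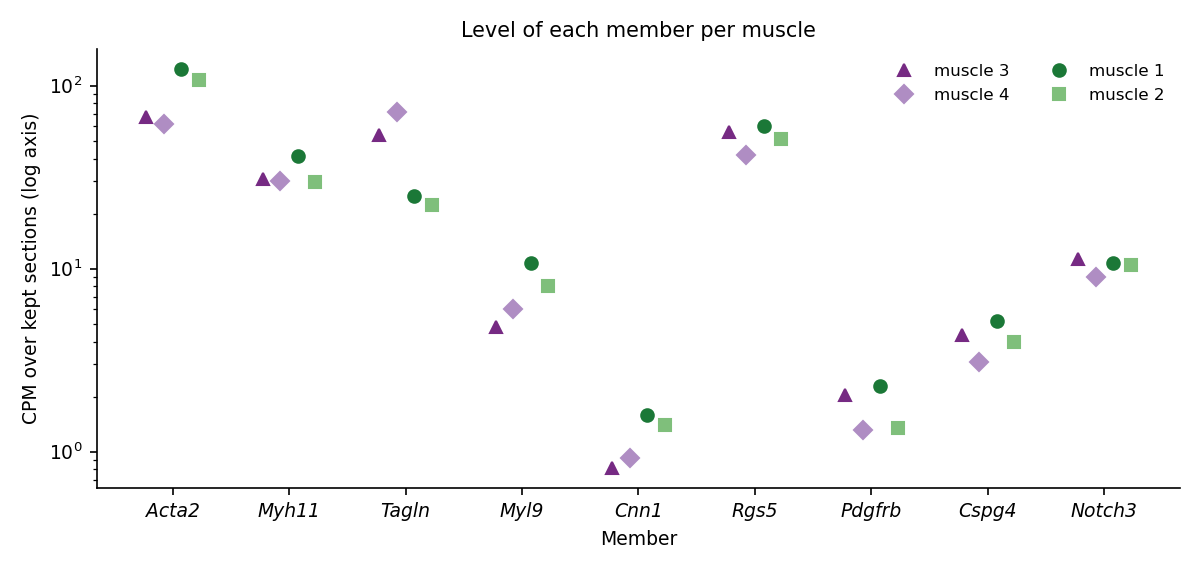
Level of each member over the kept sections of each muscle, in CPM on a log axis; each symbol is 1 muscle, with muscles 3 and 4 left of muscles 1 and 2 for every gene. Tagln was higher in muscles 3 and 4 (53.7 and 71.7 CPM against 24.8 and 22.2 CPM). Acta2, Myl9 and Cnn1 were lower there, though of these edgeR on whole-muscle sums called only Acta2 (adjusted p = 0.1665 for Myl9 and 0.2742 for Cnn1). The mural genes Rgs5 and Notch3 overlapped.

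Muscles 3 and 4 carried another set of section barcodes than muscles 1 and 2, per the list of barcodes, and this was taken as a batch. A comparison of the sets was added after these levels had been seen, with edgeR's quasi-likelihood test on the 4 whole-muscle sums. It called 26.7% of all 13240 genes tested (13.1% higher and 13.6% lower in muscles 3 and 4) and 2 of the 9 members. Tagln was higher in muscles 3 and 4 by 1.74 ± 0.24 (log2, SE; edgeR adjusted p = 0.001135). Acta2 was lower there by a log2 difference of -0.54 ± 0.17 (edgeR adjusted p = 0.0435), a call that was lost without muscle 1 (-0.45) or without muscle 2 (-0.62). With 26.7% of all genes called, 2 of 9 members is near the background.

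The change of balance did not depend on how libraries were scaled, because both genes were counted in the same sections. The ratio of Acta2 to Tagln transcripts was 1.26 and 0.863 in muscles 3 and 4, and 4.96 and 4.84 in muscles 1 and 2. Tagln overlaps Pcsk7, a protease gene on the opposite strand, and the use of strand in counting is not given in the sources used here, so reads from this pair cannot be told apart. Pcsk7 itself was listed at 7.64 and 8.35 CPM in muscles 3 and 4, and 4.60 and 4.03 CPM in muscles 1 and 2. Barcode set, animal and any other difference between the pairs of muscles cannot be told apart. The summed contractile over summed mural transcripts gave 2.14 and 3.09 in muscles 3 and 4, and 2.56 and 2.53 in muscles 1 and 2, so that the pairs overlapped.

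Along the sections Acta2 and Myh11 changed with position in all 4 muscles, Tagln in muscles 3 and 4, Cnn1 in muscle 2, and Rgs5 in muscle 4. Sections were fitted within each muscle with a spline of position (4 degrees of freedom, edgeR's quasi-likelihood test). Sections are pieces of 1 muscle and not animals, so these p-values say nothing of other muscles. The fit called 1.22%, 3.06%, 3.44% and 1.39% of all genes tested in muscles 1 to 4, and 2, 3, 3 and 4 of the 9 members.

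Acta2 was called in all 4 muscles, with edgeR adjusted p-values from 2.954e-18 to 9.1e-08. Its fitted maximum lay at position 0.25, 0.27, 0.28 and 0.17 in muscles 1 to 4, at 205, 167, 101 and 78.8 CPM. The fitted minimum was at an end of every muscle, at 65.3, 43.5, 18.7 and 25.03 CPM. Myh11 was also called in all 4 muscles (edgeR adjusted p from 2.88e-10 to 0.002377), with its fitted maximum at 0.25, 0.27, 0.33 and 0. Tagln was called in muscles 3 and 4, the muscles with more of it (edgeR adjusted p = 1.333e-15 and 1.166e-07), and not in muscles 1 and 2 (0.5161 and 0.5228). Whether its zones differed between the pairs was asked with an interaction of zone and barcode set, in which no member passed. For Tagln, first end against last, the log2 difference was 0.93 greater in muscles 3 and 4. Its edgeR unadjusted p was 0.001868 and its adjusted p 0.5254, where 8 of 9317 genes were called. This contrast compares the end zones and does not test the fitted profile.

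Myl9 was not called in any muscle (lowest edgeR adjusted p = 0.1663). Cnn1 was called in muscle 2 alone (edgeR adjusted p = 0.04502). That call was lost with a spline of 3 degrees of freedom, with another scaling and without the 2 outermost sections at each end, and Cnn1 was not tested with a stricter filter. Among the mural genes Rgs5 was called in muscle 4 alone (edgeR adjusted p = 0.003767), where the fitted level was highest at position 0.24 and lowest at the last section. Pdgfrb, Cspg4 and Notch3 were called in no muscle, with lowest adjusted p-values of 0.4173, 0.2991 and 0.402.

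**Figure D2:**
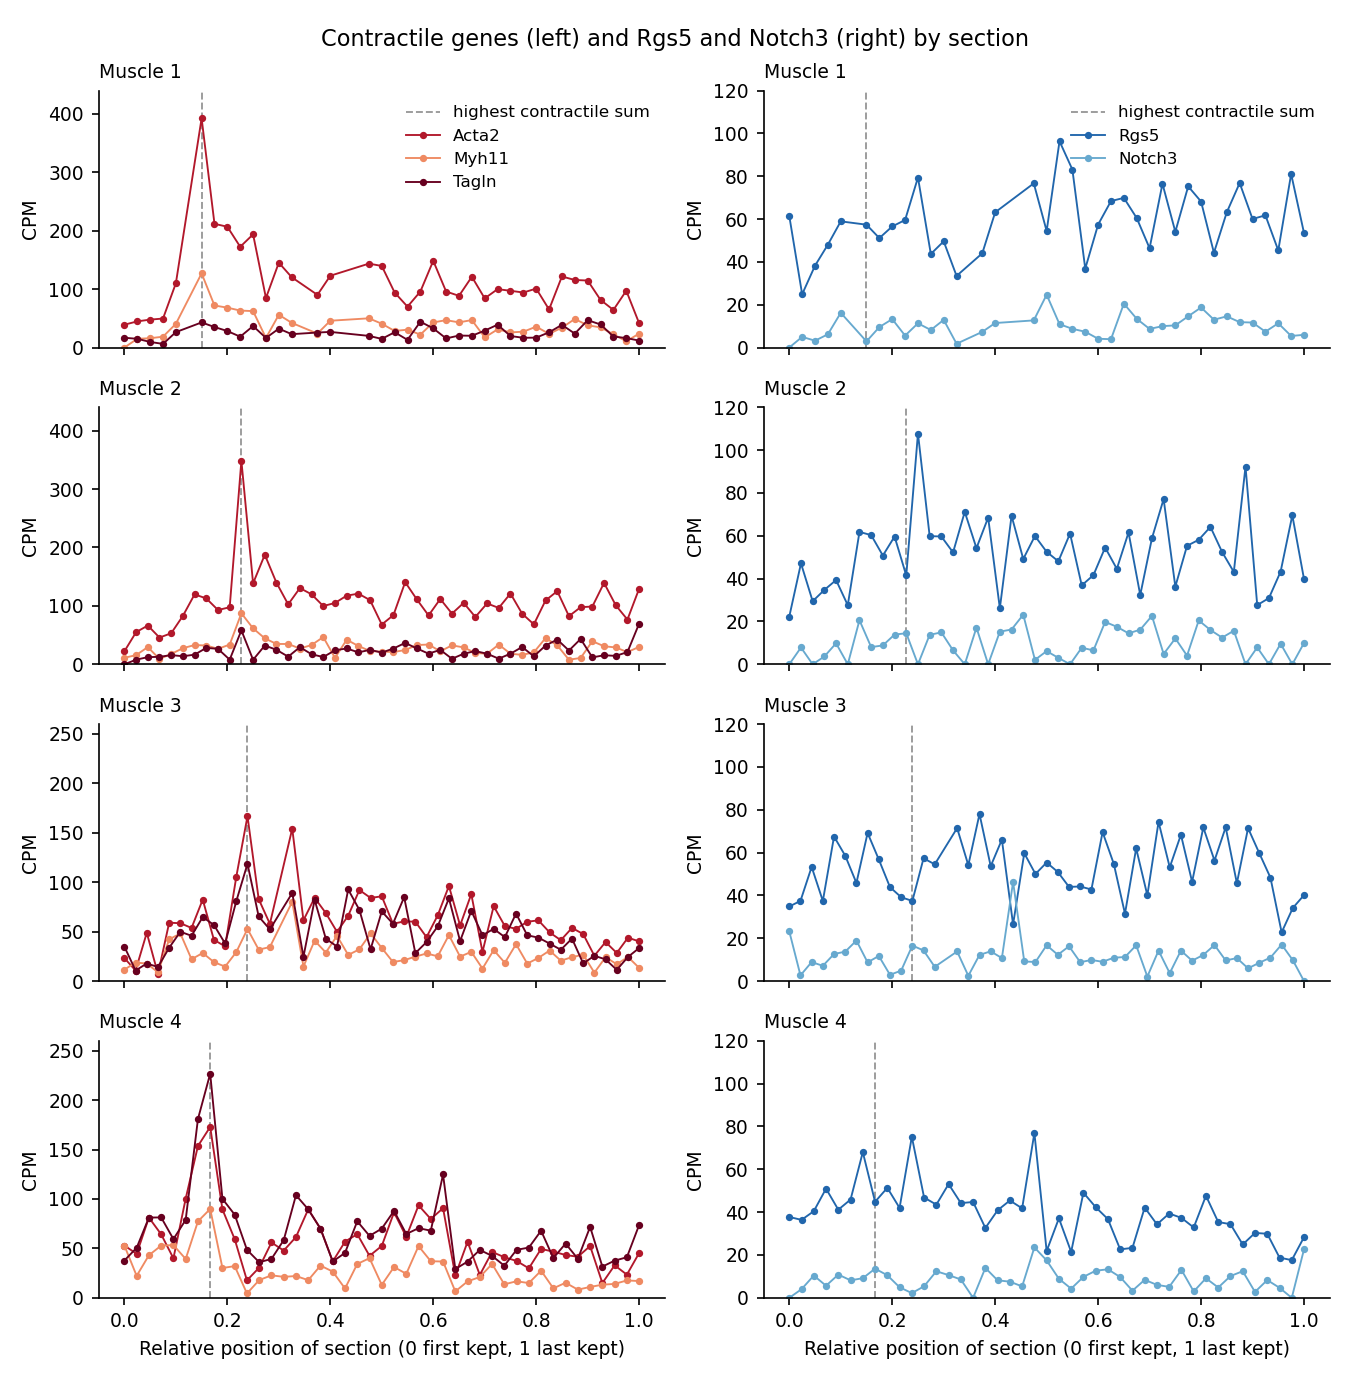
CPM of Acta2, Myh11 and Tagln (left) and of Rgs5 and Notch3 (right) in every kept section of the 4 muscles, by relative position; the dashed line marks the section with the highest summed contractile members, and the left axes of muscles 1 and 2 reach higher than those of muscles 3 and 4. Acta2 is highest at the dashed line in every muscle (392, 348, 167 and 173 CPM), and Rgs5 there is 0.974, 0.791, 0.69958 and 1.11 times its median section in muscles 1 to 4.

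The section with most contractile transcripts, found from the summed CPM of the 5 genes, was section 6 of 37, 11 of 45, 12 of 46 and 8 of 43 in muscles 1 to 4. These lie at positions 0.15, 0.227, 0.239 and 0.167. The sum there was 597, 517, 351 and 509 CPM, against 171, 157, 131 and 144 CPM in the median section, or 3.48, 3.29, 2.68 and 3.55 times as much. Because the section was picked for this sum, the heights of the contractile genes in it are a description.

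Acta2 had its highest section there in all 4 muscles, with 275, 168, 121 and 88.9 transcripts. Its level was 392, 348, 167 and 173 CPM, against 97.3, 103, 57.9 and 52.4 CPM in the median section. Myh11 was highest there in muscles 1, 2 and 4, and second in muscle 3, where section 15 at position 0.326 exceeded it. Tagln was highest there in muscles 3 and 4, at 119 and 227 CPM, and the section ranked 3 and 2 by Tagln in muscles 1 and 2. By Myl9 it ranked 2, 14, 6 and 7 in muscles 1 to 4, at 3.12, 1.34, 1.92 and 2.39 times the median section. By Cnn1 it ranked 1, 2, 2 and 1, from 5, 6, 3 and 4 transcripts. The neighbouring section shared the height in muscle 4, where section 7 had a contractile sum of 432 CPM, and in muscle 1, where section 7 had 349 CPM. Muscle 2 differed, with 151 CPM in the section before and 246 CPM in the section after its highest one.

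The mural genes had no part in picking the section. Their sum, most of which is Rgs5, was 74.5, 68.4, 63.7 and 60.4 CPM there, against 75.8, 67.4, 69.2 and 52.4 CPM in the median section. Rgs5 had 57.4, 41.5, 37.4 and 44.8 CPM there, against 58.9, 52.4, 53.5 and 40.4 CPM in the median section, so it was lower in 3 muscles and higher in muscle 4. This depended on the section read. Sections 7, 13, 15 and 7 of muscles 1 to 4 had the next highest contractile sum, at 349, 273, 339.9 and 432 CPM. Rgs5 had 51.1, 59.8, 71.4 and 68.02 CPM in these sections. It was thus lower than its median section in muscle 1 and higher in muscles 2 to 4. In the highest contractile section Cspg4 was higher than its median section in muscles 1 to 3, at 2.20, 2.71 and 2.63 times, from 8, 4 and 6 transcripts, and lower in muscle 4, from 1 transcript. Notch3 was 0.286 times its median section in muscle 1, from 2 transcripts, and 1.65, 1.53 and 1.62 times in muscles 2 to 4.

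Other marker lists were read in the same section. Smooth muscle genes other than the members stood at 1.21, 1.13, 0.884 and 1.10 times their median section in muscles 1 to 4. Most of that sum was Synpo2, which is not private to smooth muscle in such tissue. Pericyte genes other than the members stood at 1.01, 0.983, 0.741 and 1.13 times. Erythrocyte genes stood at 1.64, 1.74, 2.39 and 2.22 times their median section in muscles 1 to 4. Schwann cell and nerve genes stood at 1.60, 1.67, 1.99 and 2.31 times, from 24, 14, 30 and 22 transcripts. Lymphatic endothelial genes stood at 1.96, 3.02, 2.56 and 1.27 times, from 12, 15, 12 and 4 transcripts. Skeletal fibre genes were at 0.963, 0.980, 0.849 and 0.905 times, and tendon genes at 0.597, 0.674, 0.717 and 0.752 times. Their part in the height of the contractile genes there was not tested.

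Endothelial markers were read there to check the arterial label. Arterial endothelial genes, 8 markers such as the transcription factor Sox17 and the gap junction gene Gja5, stood at 0.982, 1.13, 1.02 and 1.91 times their median section there, from 15, 11, 10 and 13 transcripts. Venous endothelial genes were at 1.53, 0.913, 1.10 and 1.32 times. Pan and capillary endothelial genes were at 0.988, 1.16, 0.945 and 0.955 times. The arterial markers were thus close to their median section in muscles 1 to 3 and above it in muscle 4, and the 9 genes are called contractile and mural here.

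In 5 zones of equal length Acta2 and Myh11 differed along the muscle, and the other 6 members tested gave no call. Counts were summed by muscle and zone and fitted with edgeR, with muscle as a block. Of the 9 members 8 passed the filter on low counts, all but Cnn1. The test for any difference among zones called 3.99% of 9317 genes and 2 of the 8 members, Acta2 (edgeR adjusted p = 0.0001454) and Myh11 (0.0002619). Tagln missed the threshold (0.08855), Myl9 had 0.3613, and the 4 mural genes had values from 0.6546 for Notch3 to 0.9765 for Pdgfrb. With DESeq2 in place of edgeR neither call held (Acta2 adjusted p = 0.1333, Myh11 0.09778).

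The first end was higher than the last for Acta2 and Myh11, but not evenly over the muscles. In CPM scaled as in the fit (TMM), Acta2 had 172, 76.1, 45.9 and 109.5 at the first end of muscles 1 to 4, against 86.5, 85.9, 45.4 and 49.96 at the last end. It was clearly higher at the first end in muscles 1 and 4, about equal in muscle 3 and lower in muscle 2, and the ends overlapped. Of all genes tested 3.19% were called, 2.05% higher and 1.14% lower at the first end, and of the 8 members 2 were called, both higher. The fitted difference of Acta2 was 0.58 ± 0.14 (log2, SE; edgeR adjusted p = 0.005803). Its per-muscle differences were 0.99, -0.17, 0.02 and 1.12. Within barcode sets it was 0.66 in muscles 3 and 4 and 0.53 in muscles 1 and 2, neither called.

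Myh11 had 56.9, 23.2, 23.5 and 61.2 CPM at the first end, against 30.9, 23.1, 22.4 and 18.5 CPM at the last end. The ends of muscles 2 and 3 were nearly equal, so that this difference too was carried by muscles 1 and 4. Its fitted value was 0.77 ± 0.16 (edgeR adjusted p = 0.001435), and per muscle 0.87, 0.01, 0.07 and 1.70. Within barcode sets it was called in muscles 3 and 4 (0.97, edgeR adjusted p = 0.00959) and not in muscles 1 and 2 (0.58, edgeR adjusted p = 0.07342). Tagln had 25.5, 17.2, 42.1 and 125 CPM at the first end, against 24.1, 23.9, 31.3 and 63.01 CPM at the last end, and missed the threshold (0.47 ± 0.14, edgeR adjusted p = 0.05711).

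Muscles 1 and 4 are those whose highest contractile section fell in zone 1, while in muscles 2 and 3 it fell in zone 2. Without that 1 section per muscle, an alternative chosen after seeing the data, Acta2 fell short of the threshold (0.33, edgeR adjusted p = 0.1377) and Myh11 was still called (0.56, edgeR adjusted p = 0.02566). With 10 zones, whose outermost zones end before the highest section, the difference of Acta2 was -0.17 and that of Myh11 0.39, neither called. Without muscle 4 neither gene was called (0.38 and 0.40), and without muscle 1 Acta2 was not (0.41). DESeq2 called neither, at nearly the same differences (Acta2 0.58, adjusted p = 0.1497; Myh11 0.76, adjusted p = 0.06002). With equal section weights in limma the differences were 0.04 for Acta2 and 0.26 for Myh11, neither called.

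None of the mural genes was called between the ends. Rgs5 had 52.7, 44.3, 52.1 and 56.6 CPM at the first end, against 57.3, 41.7, 55.9 and 40.7 CPM at the last end, with a fitted difference of 0.06 ± 0.10 (edgeR adjusted p = 0.8674). The ends overlapped, and muscle 4 had the widest gap. The other mural genes had -0.20 ± 0.17 (Notch3), 0.15 ± 0.40 (Pdgfrb) and 0.27 ± 0.29 (Cspg4), none called. With standard errors this wide, a difference as large as that of Myh11 was not detectable for Pdgfrb and Cspg4 at this depth.

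Both ends against the middle zone gave no call among the 8 members, where 1.45% of all genes were called (0.623% higher and 0.826% lower). No member had an unadjusted p under 0.05 in that edgeR fit, and DESeq2 and limma called none either. The fitted log2 differences ran from -0.25 for Notch3 to 0.21 for Myl9, with a median of -0.04, beside -0.01 over all genes tested. Notch3 was lower at the ends in all 4 muscles (-0.35, -0.36, -0.25 and -0.21; fitted -0.25 ± 0.13, edgeR adjusted p = 0.4681). With 10 zones it was -0.49 (edgeR unadjusted p = 0.00937, adjusted p = 0.117), and with equal section weights in limma -0.57 (unadjusted p = 0.00913, adjusted p = 0.1709), where the median of all genes also moved by -0.15. With 10 zones, 1 member was called, Acta2, which was lower in the outermost zones than in the middle.

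**Figure D3:**
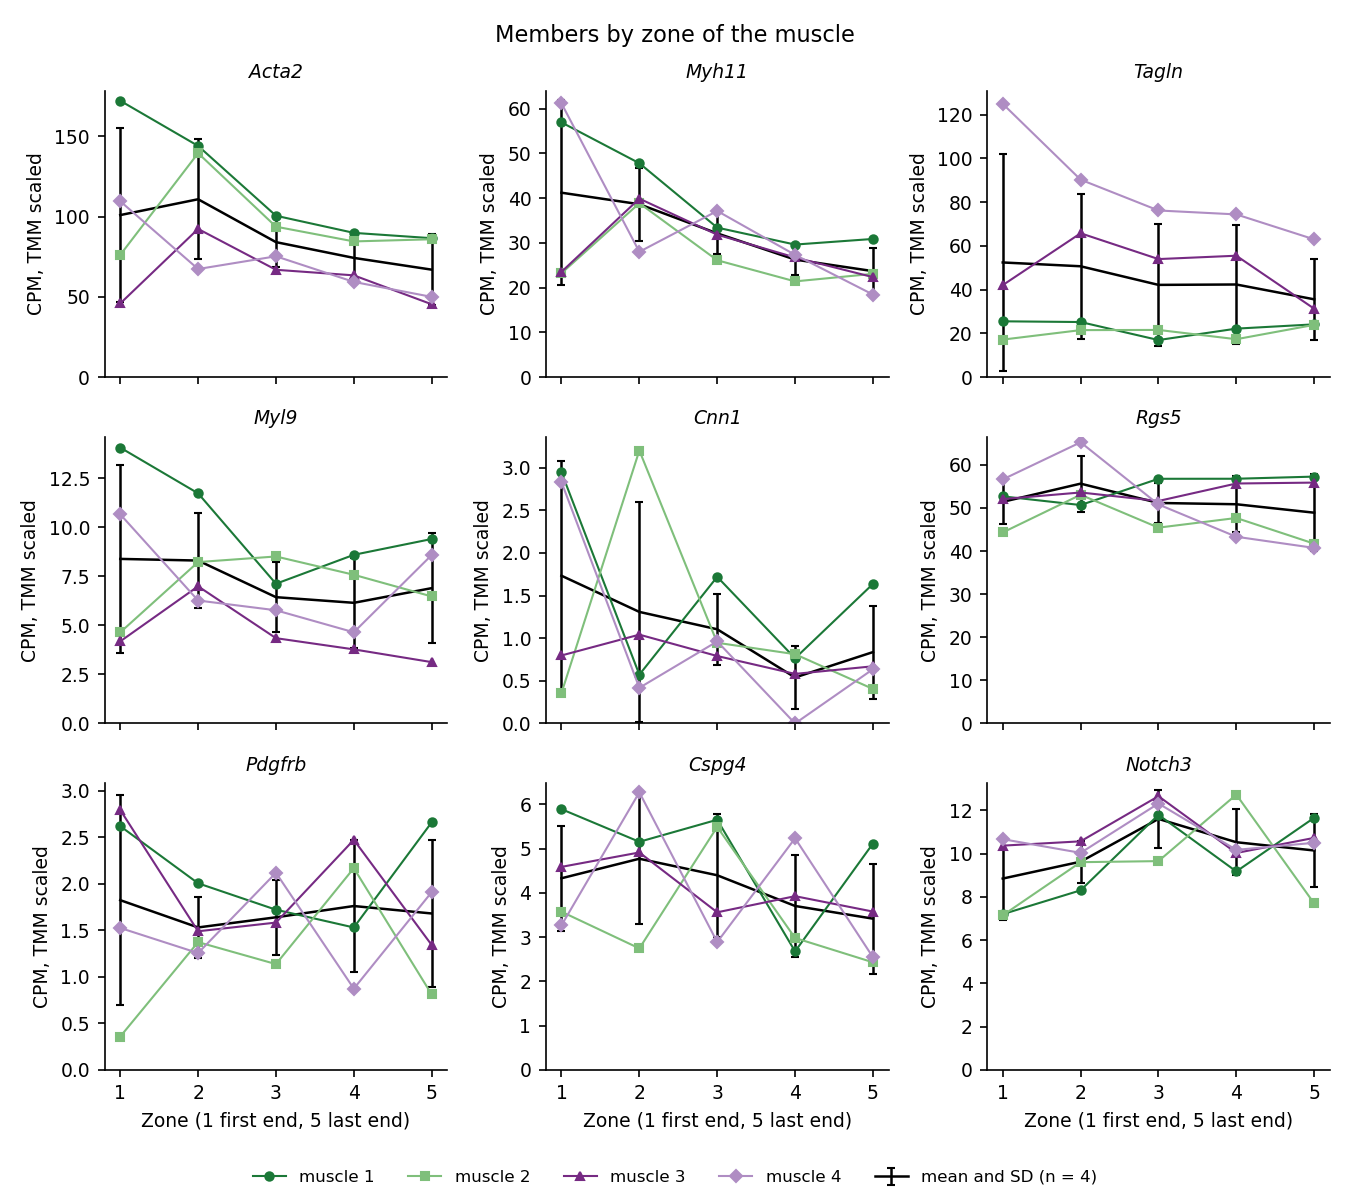
CPM of the 9 members in 5 zones of equal length, scaled by TMM as in the fit, with 1 line per muscle and the mean ± SD of 4 muscles in black. Acta2 and Myh11 are high in zone 1 of muscles 1 and 4 and in zone 2 of muscles 2 and 3, while Rgs5 and Notch3 stay within a narrower band.

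Section to section, Acta2, Myh11 and Tagln varied well beyond counting error on average, and the other 6 members stood closer to it. The coefficient of variation (CV) of a gene's CPM over sections was divided by the CV that Poisson counting at each section's depth would give. For the same true spread this ratio rises with the number of transcripts. A ratio near 1 at low counts therefore does not show an even level. This ratio was 3.86, 2.42, 2.59 and 2.71 for Acta2 in muscles 1 to 4. It averaged 2.89 ± 0.658 for Acta2, 1.94 ± 0.469 for Myh11 and 2.02 ± 0.797 for Tagln (SD, n = 4). For Tagln it was 2.31 and 3.01 in muscles 3 and 4, from 1449 and 1641 transcripts. In muscles 1 and 2 it was 1.31 and 1.44, from only 470 and 380 transcripts. Myl9 averaged 1.203 ± 0.220 and Cnn1 1.14 ± 0.145. Counting alone gave Myl9 a CV of 0.491, 0.671, 0.721 and 0.651 in muscles 1 to 4. For Acta2 it gave 0.145, 0.184, 0.192 and 0.203.

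Rgs5, with a number of transcripts between those of Myh11 and Acta2 in every muscle, had ratios of 1.26, 1.25, 1.24 and 1.33. In no muscle did it reach the ratio of Acta2 or Myh11. Its lowest, median and highest sections were 24.9, 58.9 and 96.3 CPM in muscle 1, 22.3, 52.4 and 108 CPM in muscle 2, 22.7, 53.5 and 77.997 CPM in muscle 3, and 17.6, 40.4 and 76.98 CPM in muscle 4. The corresponding values of Acta2 were 39.1, 97.3 and 392 CPM in muscle 1, 22.3, 103 and 348 CPM in muscle 2, 7.11, 57.9 and 167 CPM in muscle 3, and 14.9, 52.4 and 173 CPM in muscle 4. The highest section of Acta2 was thus 2.88 to 4.03 times its median section, and that of Rgs5 was 1.46 to 2.06 times. Notch3, Cspg4 and Pdgfrb averaged 1.22 ± 0.112, 1.16 ± 0.0937 and 0.959 ± 0.132.

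Neighbouring sections were alike in their contractile sum and less so in their mural sum. The correlation of a section with the next averaged 0.505 (0.407 to 0.578 over the 4 muscles) for the contractile sum and 0.163 (0.0252 to 0.299) for the mural sum. Among single genes it was highest for Acta2, at 0.432, and it was 0.104 for Rgs5. Counting error lowers such an r and weighs more on the mural sum. Counting alone gave the mural sum a CV of 0.182, 0.233, 0.184 and 0.214 in muscles 1 to 4. Its observed CV was 0.241, 0.281, 0.240 and 0.289. For the contractile sum counting gave 0.114, 0.147, 0.126 and 0.122, and 0.520, 0.416, 0.449 and 0.540 were observed. How far counting error set the lower r was not tested.

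**Figure D4:**
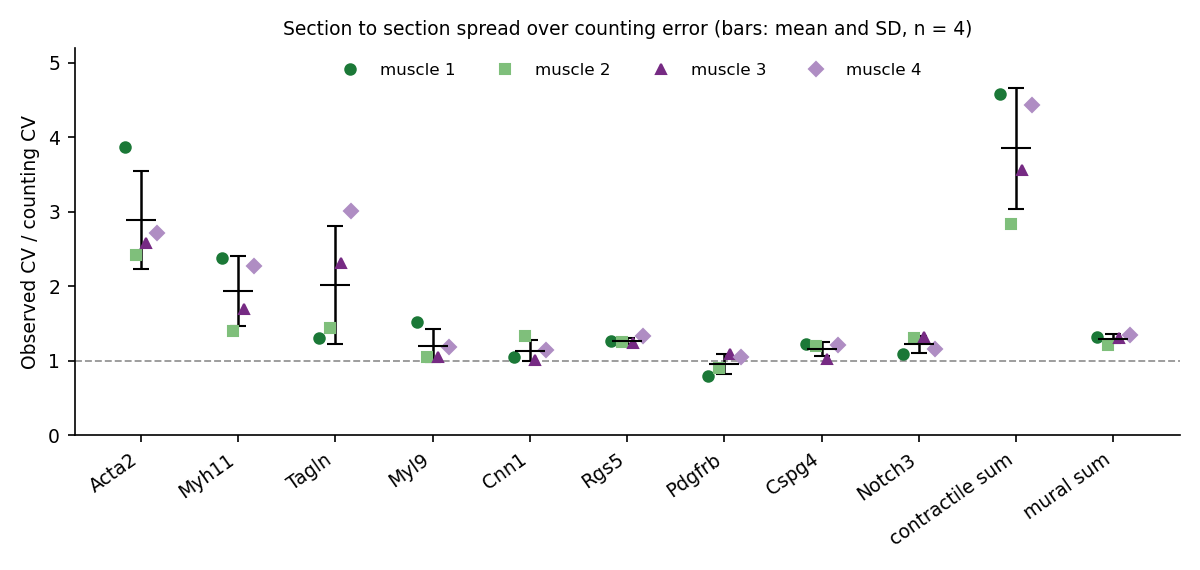
Observed CV over the CV expected from counting, across the sections of each muscle, for the 9 members and for the contractile and mural sums; symbols are muscles, bars the mean ± SD (n = 4), and the dashed line at 1 is counting error alone. Acta2, Myh11 and Tagln lie above the mural genes on average, and Rgs5 lies between 1.24 and 1.33. The ratio also rises with a gene's number of transcripts.

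Members were also compared with each other section by section, by Pearson's r of log2(CPM + 1) within each muscle. Such values are descriptions, since the points share libraries and depth, and low counts weaken them. Acta2 was most like Myh11 (mean r 0.711, 0.656 to 0.762 over the muscles) and Tagln (0.711, 0.601 to 0.798). Myh11 and Tagln were less alike (0.430, 0.184 to 0.623). The 10 contractile pairs averaged 0.416, pairs of a contractile with a mural gene 0.207, and the mural pairs 0.0795. The highest mural pair was Pdgfrb with Notch3, at 0.113.

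After a spline of position had been taken out of each gene, the contractile pairs averaged 0.292 and Acta2 with Myh11 still 0.586. With position left in, the summed contractile and summed mural members, where counts are higher, gave 0.497 (0.399 to 0.6001). After the spline they gave 0.364. Also with position left in, Rgs5 was more like Acta2 (0.324) than like any other mural gene, of which Notch3 was nearest (0.113). After the spline Rgs5 had 0.154 with Acta2 and 0.0063 with Notch3.

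**Figure D5:**
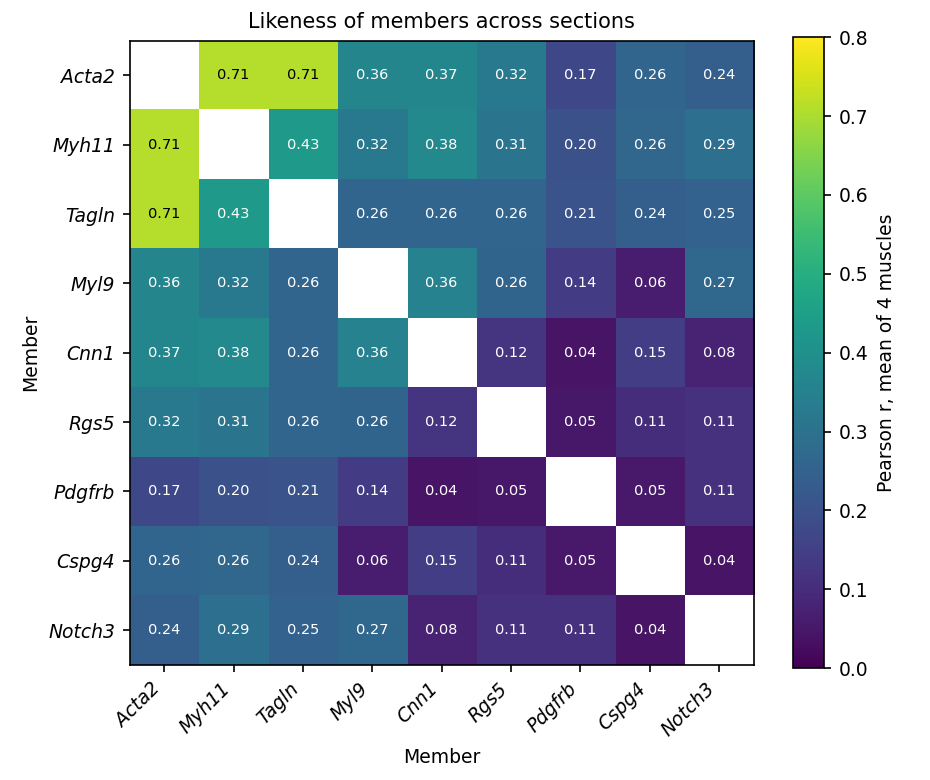
Pearson's r of log2(CPM + 1) between members across sections, as the mean of 4 muscles, from 0 (dark) to 0.8 (light). The pairs Acta2 with Myh11 and Acta2 with Tagln, both at 0.71, stand above the remaining pairs, and the mural pairs reach 0.11 at most.

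Among 4314 genes with at least 5 CPM in every muscle, the 8 most like the contractile sum were H19, Pcbp2, Acadl, Ybx1, Ptma, Fth1, Atp5b and Lpl, with mean r from 0.539 to 0.503. H19, an imprinted non-coding RNA, varied from 0.175 in muscle 2 to 0.706 in muscle 3. Lpl, the lipoprotein lipase, ran from 0.0827 in muscle 2 to 0.793 in muscle 3, while Ybx1, Ptma and Fth1 stayed between 0.480 and 0.599 in every muscle. The 8 most like the mural sum were Col3a1, Psap, Ybx1, Ptma, Rplp0, Qk, Fth1 and Mef2c, with mean r from 0.526 to 0.497. Ybx1, Ptma and Fth1 stood in both groups of 8.

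Summed marker lists gave the same kind of description. The contractile sum was most like the Schwann cell and nerve list (mean r 0.619, 0.433 to 0.765), followed by lymphatic endothelium (0.566) and pan and capillary endothelium (0.514). It was less like the venous list (0.422) and least like the arterial (0.175) among the endothelial ones. The tendon list was at -0.0768. The arterial list summed to 17.5 CPM and the pan and capillary list to 251 CPM, so counting error weighs more on the first. The lymphatic list at 9.32 CPM and the Schwann cell and nerve list at 24.9 CPM were also low, yet had the higher r given above. How far counting error set these values of r was not tested.

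Other genes of the same cells and pathways added few calls along the zones. Of 20 other smooth muscle genes 14 were tested, and none was called between the first and the last end (median log2 difference 0.09, beside -0.0024 over all genes tested). The test for any difference among zones called 1 of the 14, Map3k7cl (edgeR adjusted p = 0.02554). Several genes of this list are not private to smooth muscle in such tissue, for Synpo2 alone, an actin-associated protein of the Z-disc, had 600, 566, 389 and 282 CPM in muscles 1 to 4. Of 14 other pericyte genes 10 were tested, and none was called in any of the 3 tests. They included Abcc9, a potassium channel subunit and the most abundant gene of this list, at 41.3, 42.9, 74.3 and 53.4 CPM. In whole tissue its counts cannot be assigned to pericytes alone.

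Ligands and targets of the mural pathways gave no call either, in 8 tested of 16. Pdgfb, the ligand of Pdgfrb, had 5.02, 8.13, 8.90 and 10.4 CPM, and the Notch target Heyl had 4.39, 2.45, 4.67 and 7.17 CPM. Of the 8 genes listed for serum response factor and myocardin 4 were tested, and none was called. Srf itself had 18.4 and 20.2 CPM in muscles 3 and 4, and 8.30 and 9.53 CPM in muscles 1 and 2. Myocd, the myocardin gene, stayed under 1 CPM in every muscle and did not pass the filter.

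Some lists of other cells also held genes called between the ends, where 3.19% of all genes tested were called (2.05% higher and 1.14% lower). All 5 erythrocyte genes were higher at the first end (median log2 difference 1.68), as was Sox10 (1.57 ± 0.35), a transcription factor of Schwann cells. Of the 14 pan and capillary endothelial genes tested, Kdr (0.78 ± 0.18) and Car4 (1.05 ± 0.28) were higher, and of 5 tendon genes tested 3 were lower. Of 4 venous endothelial genes tested 1 was higher. Of 9 fibro-adipogenic and adventitial genes tested 1 was higher and 1 lower, and likewise of 8 skeletal fibre genes. None of the 5 arterial endothelial genes tested was called. These calls are edgeR's, with adjusted p under 0.05, and their part in the difference of Acta2 and Myh11 was not tested.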

How the data were processed

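Per the labels' protocols, TRIzol RNA of each cryosection was primed in a well of a 96-well plate, with 6 bases of molecular identifier (UMI) and 8 bases of section barcode. The submitters' processing notes name STAR 2.7.7a and GRCm38. Not given in the sources used here are the counter, the annotation and any use of strand. The authors deposited estimated counts per gene and barcode, which from the values are UMI counts corrected for repeated draws out of 4096; members reached 275 transcripts in a section, far from the ceiling. The authors also deposited filtered tables of a normalized signal, used only to learn which sections were kept (matched within 1e-06).

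Rows naming several genes (0.580% to 0.930% of transcripts) were left out, and identifiers were matched to GENCODE M21. Sections were ordered by barcode number. Estimated counts were summed into 20 zone sums of 1989683 to 6604613 transcripts, rounded, and fitted by edgeR 4.0.16 under R 4.3.3 (quasi-likelihood, TMM, filterByExpr, Benjamini-Hochberg at 0.05) with muscle as the replicate block, because the zones of a muscle come from the same tissue. The biological coefficient of variation was 7.03%. Standard errors were derived from the F statistic and rest on the spread of all sums, not of the per-muscle differences. Splines needed a gene to be counted in 25% of sections or more. Alternatives were DESeq2 1.42.0, limma, other scalings, filters, zone numbers, sections and muscles left out, thinning, and CPM of nuclear genes. Simulated data were used to test the fits. All 9 members are named, with the genes of each list that passed a threshold or were most abundant, and the 8 most like each sum. Members, lists, tests and alternatives were chosen with earlier results of these data known. The result of 1 list gene is not reported here.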

Additional observations from a re-analysis of the deposited data

Results flagged for a closer look

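The level of Myh11 in muscle 1, 41.4 CPM, was far from those of the other muscles (29.8, 30.8 and 30.3 CPM in muscles 2 to 4) relative to the range of all 4. Chance flags about 1 in 20 groups of 4, and 27 such groups were examined, 3 measures for each of the 9 members. No other was flagged.

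Barcodes outside the kept sections held transcripts of the 9 members. There were 130, 133, 118 and 98 in muscles 1 to 4, summed over the 9 members and over 59, 51, 50 and 53 barcodes. They made up 2.39%, 3.19%, 1.85% and 1.86% of the members' transcripts, against 3.62%, 3.87%, 2.49% and 2.37% of all transcripts. These barcodes were not used in any comparison.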

How the results depend on the processing

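Between the first and last end 2 of 8 members were called, and 0 with DESeq2, with 10 zones, with no replicate block, in muscles 1 and 2 only and with equal section weights in limma, 1 (Myh11) without the section highest in contractile members, and 5 with 3 zones, where Cnn1 and Myl9 also passed. Without 1 muscle at a time the count ran from 0 (without muscle 4) to 3 (without muscle 2). Acta2 turned to -0.17 with 10 zones. Tagln turned to -0.16 with 10 zones, -0.14 in muscles 1 and 2 only and -0.13 in limma. Rgs5, which was not called, turned to -0.041 in muscles 1 and 2 only, and ran from -0.068 to 0.14 without 1 muscle at a time. The causes were not tested, except that 10 zones leave the highest section out of the end zone by construction. Any difference among zones called 2 members, and 0 with DESeq2 and with no replicate block, 1 (Acta2) in limma and 4 with 3 zones. Both ends against the middle called 0, and 1 (Acta2) with 10 zones. The limma fit also moved the median of all genes by -0.15 at the ends, so its values are relative to that. Over all genes the alternatives called 0 to 333 at the ends, 1 to 351 between the ends and 4 to 384 for any difference, the lowest each time without the block. Between muscles 3 and 4 and muscles 1 and 2, leaving out 1 muscle gave 1 to 3 members; Tagln was called in every alternative run, and scaling by library totals alone moved the median of all genes by -0.28 and the difference of Acta2 to -0.83. Within muscles, Acta2 and Myh11 were called under all 4 spline alternatives. The summed level of 244 CPM became 655 CPM over nuclear-encoded transcripts alone, by construction, and the mean contractile r of 0.416 became 0.292 after a spline of position. Depth limits Cnn1 and Pdgfrb above all, which were counted in 60 and 89 of 171 sections.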

Other observations

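Other smooth muscle genes differed between muscles 3 and 4 and muscles 1 and 2 in both directions, by edgeR on whole-muscle sums (adjusted p under 0.05; 26.7% of all genes were called). Of 19 tested 3 were higher in muscles 3 and 4 and 5 lower. The lower ones were Itga8 (-2.18 ± 0.26), an integrin subunit, Ppp1r14a (-2.06 ± 0.28), an inhibitor of myosin phosphatase, Lmod1 (-1.14 ± 0.32), an actin nucleator, Ramp1 (-0.95 ± 0.23), a receptor subunit, and Smtn (-0.73 ± 0.18), smoothelin. The higher ones were Gucy1b1 (1.59 ± 0.26), a subunit of the nitric oxide receptor, Npnt (1.48 ± 0.36) and Ppp1r12b (0.83 ± 0.16). Srf was higher too (1.42 ± 0.21), and the arterial list gave 1 call of 6, Stmn2 (-1.15 ± 0.24). These values were looked at after the difference of Tagln had been seen. Barcode set and muscle cannot be told apart.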
